A study of Rattus norvegicus with 6 samples.

Results

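The miR-148 and miR-152 family was examined in fibroblasts of rat sciatic nerve and in the vesicles they release. Its members were chosen by name, as every arm of rno-miR-148a, rno-miR-148b and rno-miR-152 in the deposited tables. This gave 6 of 1071 rows, a 3p and a 5p arm for each of 3 precursors. Small RNA was sequenced from 3 samples of vesicle RNA, named EV here and exosomal in the labels, and 3 samples of RNA from inside the cells, named Intracellular, the controls of the design. All 6 samples came from wild type, untreated, nerve-derived fibroblasts and carried the same batch number, and no age or strain is given in the sources used here. The labels do not say whether replicates were separate cultures or animals, so the spread between them may be technical. The family was proposed with EV and Intracellular results of these data known. Its values in that comparison are therefore given as a description, without p-values.

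Each miRNA precursor is a hairpin that is cut into a 5p and a 3p arm, and usually one of the arms is kept by an Argonaute protein while the other is degraded. The kept arm finds messenger RNAs mainly through its seed, bases 2 to 8, so miRNAs with the same seed are expected to share many targets. Members of the miR-148 and miR-152 family are known as repressors of Dnmt1, the maintenance DNA methyltransferase, and miR-148a is also known for its abundance in liver and in milk. miR-152 and miR-148b are intronic miRNAs of Copz2 and Copz1, paralogous genes for the zeta subunit of the COPI vesicle coat. In the RefSeq gene table (GRCr8), Mir152 lies within Copz2 and Mir148b within Copz1, each on the strand of its host. Mir148a lies within no gene of that table, with Npvf and LOC102549423 as the nearest protein-coding genes on either side. No coordinates are given, since the submitters' processing notes name another build, Rnor_6.0.

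The sequences of the 6 arms, as the deposited tables give them in DNA letters, are shown because shared seeds define the family and because the 3p arms are nearly identical. Capitals mark the seed.
rno-miR-148a-3p: tCAGTGCActacagaactttg
rno-miR-148b-3p: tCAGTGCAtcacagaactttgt
rno-miR-152-3p: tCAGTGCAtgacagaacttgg
rno-miR-148a-5p: aAAGTTCTgagacactctgactc
rno-miR-148b-5p: gAAGTTCTgttatacactcagg
rno-miR-152-5p: aGGTTCTGtgatacactccgact

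Of 659 rows with a sequence, 3 carried the seed CAGTGCA, and they are the 3p arms of the family. With positions counted from 1 at the 5′ end and the first-named miRNA's base first, miR-148a-3p and miR-148b-3p differ by C9T and T10C over 21 positions. miR-148a-3p and miR-152-3p differ by C9T, T10G and T20G. miR-148b-3p and miR-152-3p differ by C10G and T20G. The 5p arms of miR-148a and miR-148b share another seed, AAGTTCT, which was found in 2 rows, whereas the seed of miR-152-5p, GGTTCTG, was found in 1. RefSeq held 5 of the 6 mature sequences, each identical to the deposited one. How reads that fit more than 1 of these arms were divided is not given in the sources used here.

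The hairpins of Mir148a and Mir148b, from RefSeq (GRCr8; minus and plus strand), are shown because the balance of their arms is described further on. Capitals mark the 5p arm, which comes first, and the 3p arm.
Mir148a: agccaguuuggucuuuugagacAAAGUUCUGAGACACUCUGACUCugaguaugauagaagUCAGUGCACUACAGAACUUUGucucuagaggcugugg
Mir148b: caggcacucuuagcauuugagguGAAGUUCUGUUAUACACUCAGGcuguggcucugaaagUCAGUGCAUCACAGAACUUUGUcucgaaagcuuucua

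Totals were 81211 to 105578 counts in EV libraries and 1839047 to 8859302 in Intracellular ones, so a single EV count was worth 9.47 to 12.3 CPM, the share of a library expressed per 1000000 of its counts. Intracellular replicate 1 stood apart, with a factor of 0.557 in TMM scaling (trimmed mean of M values) against 0.963 and 0.935 in the other Intracellular libraries. Of the fibroblast and mesenchymal marker list all 6 miRNAs were present, and together they held 415352 to 424302 CPM in EV libraries and 465257 to 490341 CPM in Intracellular libraries. Levels are in CPM, with no length term, and all 6 arms are 21 to 23 bases long. Adapter ligation differs between sequences, so levels of different miRNAs are less comparable than levels of 1 miRNA in different libraries. Intervals from counts cover counting error only.

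miR-152-3p, the most abundant member, took 36251, 43143 and 20600 CPM in EV replicates 1, 2 and 3 and 5302, 8190 and 9114 CPM in Intracellular replicates 1, 2 and 3. Every EV library lay above every Intracellular one, although EV replicate 3 was well below the other EV libraries. The means were 33332 ± 11552 CPM in EV libraries and 7535 ± 1989 CPM in the Intracellular group (SD, n = 3), a ratio of 4.42. In EV libraries 1, 2 and 3 it was the 6th, 6th and 12th most abundant row, and in Intracellular libraries the 21st, 18th and 18th. These values rest on 9401 EV and 117626 Intracellular counts. In bulk libraries, more vesicles or cells that carry a miRNA and more copies in each of them cannot be told apart.

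miR-148a-3p took 1453, 1449 and 1657 CPM in EV replicates 1, 2 and 3 and 225.1, 236.3 and 237.7 CPM in Intracellular replicates 1, 2 and 3. Both groups were tight and far apart, at 1520 ± 119 CPM in EV libraries and 233.1 ± 6.91 CPM in the Intracellular group (SD, n = 3), a ratio of 6.52. The EV values rest on 118, 153 and 153 counts, and the lowest 95% exact Poisson bound among them was 1203 CPM. Its rank moved from 89th, 126th and 124th in the Intracellular libraries to 60th, 60th and 53rd in the EV libraries.

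miR-148b-3p, which differs from miR-148a-3p at 2 of 21 positions, stood at overlapping levels in vesicles and cells. It took 1601, 1667 and 1765 CPM in EV replicates and 1841, 1695 and 1657 CPM in Intracellular replicates. The ranges overlapped, and the means of 1678 ± 82.9 and 1731 ± 97.3 CPM (SD, n = 3) differed by less than the spread between replicates. The order of the 3p arms in the cells was therefore miR-152-3p, miR-148b-3p and miR-148a-3p with wide gaps. In EV the order was the same, but miR-148b-3p and miR-148a-3p were close neighbours whose ranges overlapped, with miR-148b-3p the higher in each of the 3 libraries.

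**Figure D1:**
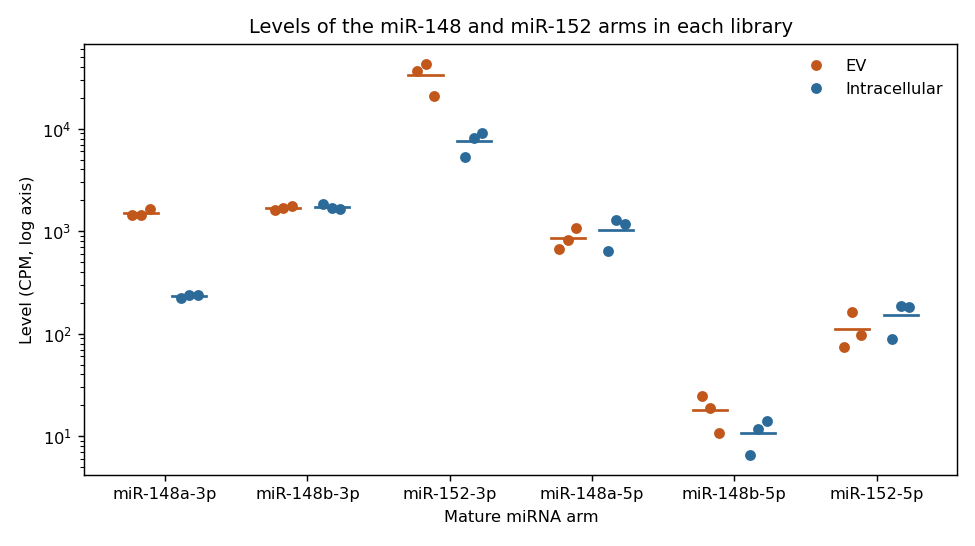
Level of each arm of the family in CPM (logarithmic axis) in the 3 EV and 3 Intracellular libraries; points are libraries and bars are group means. For miR-148a-3p and miR-152-3p the EV points lie above all Intracellular points, and for the other 4 arms the points of the groups overlap.

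For each of the 5p arms the libraries of the groups overlapped. miR-148a-5p took 677.2, 824 and 1083 CPM in EV replicates and 642.2, 1286 and 1164 CPM in Intracellular replicates. miR-152-5p took 73.9, 161 and 97.5 CPM in EV libraries and 89.2, 186.8 and 183.5 CPM in Intracellular replicates, from 6, 17 and 9 EV counts. miR-148b-5p was the rarest member, at 24.6, 18.9 and 10.8 CPM in EV libraries and 6.53, 11.8 and 14.1 CPM in Intracellular replicates. With 2, 2 and 1 EV counts its 95% Poisson intervals reached from 0.274 to 89.0 CPM over the EV libraries, so no difference of this arm was detectable at this depth.

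Fold changes were fitted over the whole table with edgeR's quasi-likelihood test and TMM scaling, and a call is a Benjamini-Hochberg adjusted p under 0.05 over all 328 miRNAs tested. All 6 members passed the filter on low counts, which few EV reads could meet, as miR-148b-5p had 2, 2 and 1 EV counts. The log2 fold change, EV minus Intracellular, was 2.02 (SE 0.23, 95% interval 1.54 to 2.50) for miR-148a-3p and 1.51 (SE 0.27, 0.95 to 2.07) for miR-152-3p. It was -0.76 (SE 0.23, -1.26 to -0.27) for miR-148b-3p. Of the 5p arms, miR-148a-5p was at -0.84 (SE 0.22), miR-152-5p at -1.02 (SE 0.30) and miR-148b-5p at 0.10 (SE 0.69).

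By these fits 2 of 6 members were called higher in EV, where 25.6% of all tested miRNAs were, and 3 of 6 were called lower, where 17.1% were. The lower calls were those of miR-148b-3p, miR-148a-5p and miR-152-5p, and they hold relative to the TMM reference. With total-count scaling 2 of 6 members were called higher (32.6% of all tested) and 0 of 6 lower (0.915% of all tested), with 0 lower at an unadjusted p under 0.05. DESeq2, with its own size factors and not total counts, called 3 of 6 lower. The log2 fold changes with total counts were 2.71 for miR-148a-3p, 2.15 for miR-152-3p and -0.04 (95% interval -0.63 to 0.55) for miR-148b-3p. Over all tested miRNAs, 84 were higher and 56 lower with TMM, 107 and 3 with total counts, and 73 and 92 with upper-quartile scaling. With TMM and at least 10 counts in 3 or more libraries, 61 of 307 tested were higher and 36 lower. Total counts moved the median over all tested miRNAs up by 0.61 on the log2 scale.

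In CPM, 2 of 6 members had every EV library above every Intracellular one, as did 41.8% of all tested miRNAs. Shares of higher levels over all tested miRNAs include some that passed the filter through EV alone. One of these is miR-486, at 141.8 CPM in EV and 2.27 CPM in the Intracellular group. The opposite order was seen for 0 of 6 members, against 3.66% of all tested. Among the 73 known miRNAs with a mean of at least 1000 CPM in a group, miR-148a-3p had the 6th and miR-152-3p the 9th highest log2 fold change. miR-148a-3p reached 1000 CPM in EV alone (1520 against 233.1 CPM), as did others of the set, such as miR-122-5p. For these a high fold change goes with being in the set, so the ranks are a description only. In that set 23.3% were called higher and 46.6% lower. With total counts these shares were 34.2% and 4.11%.

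The call of miR-152-3p was lost without Intracellular replicate 1 when the tested miRNAs were kept the same (log2 fold change 1.59, SE 0.41). The lower call of miR-148b-3p was lost without EV replicate 1, without Intracellular replicate 1 (-0.32) and, with the same miRNAs tested, also without EV replicate 2 or 3. That of miR-152-5p was lost without EV replicate 1 and, with the same miRNAs tested, without EV replicate 3, and that of miR-148a-5p without EV replicate 1 with the same miRNAs tested. miR-148a-3p was called higher in 25 of 25 alternatives, with log2 fold changes of 1.78 to 2.71.

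**Figure D2:**
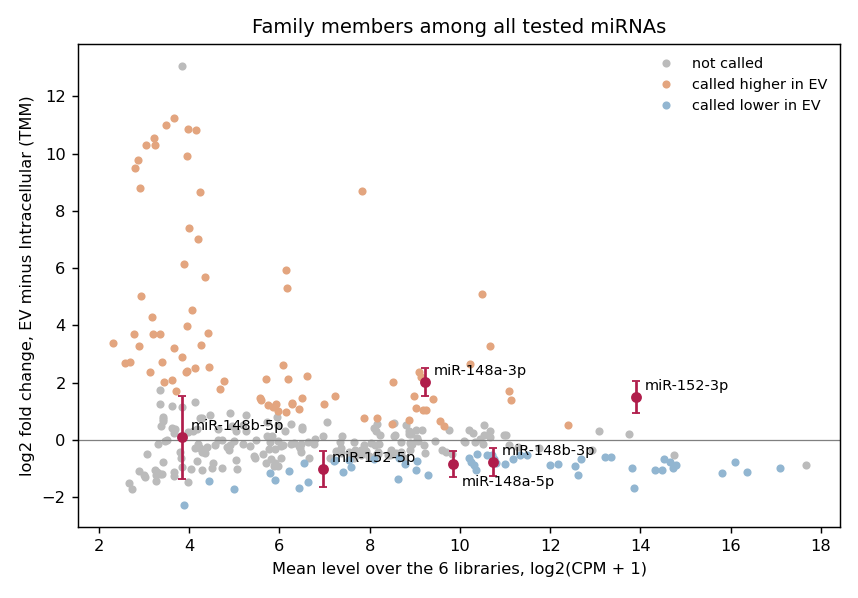
Log2 fold change (EV minus Intracellular, edgeR with TMM) against mean level in log2(CPM + 1) for the 328 tested miRNAs, coloured by call, with the 6 family members in dark red and their 95% intervals. miR-148a-3p at 2.02 and miR-152-3p at 1.51 lie among the miRNAs called higher, and miR-148b-3p at -0.76 lies in the band of abundant miRNAs called lower.

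**Figure D3:**
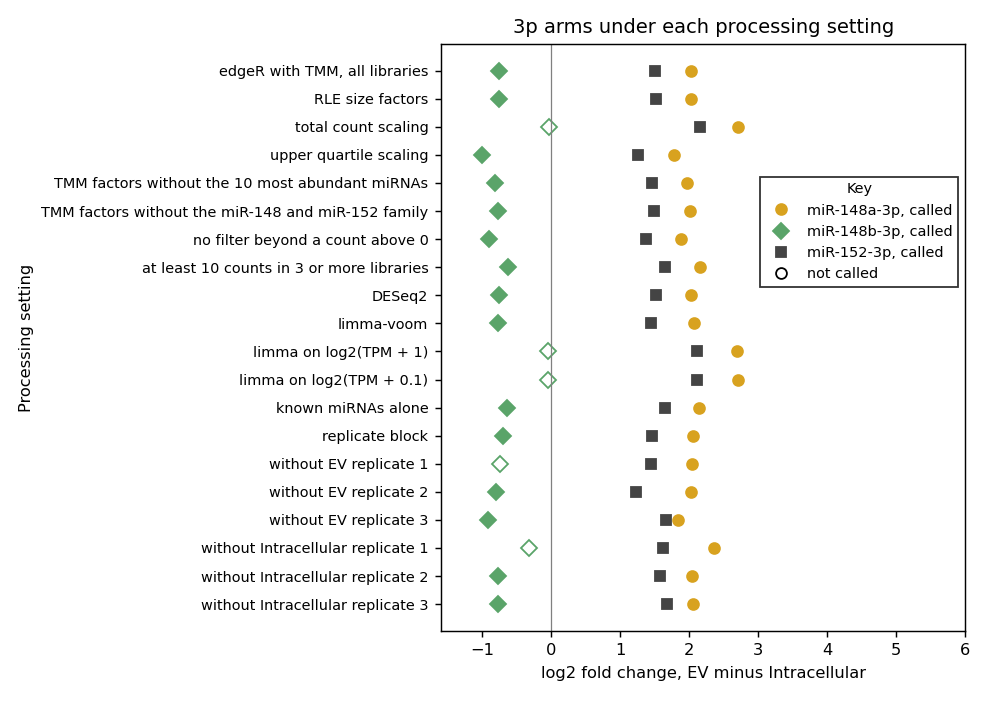
Log2 fold change of the 3p arms (EV minus Intracellular) under each processing setting, with the filter applied again where a library is left out; filled symbols are calls and open symbols are not called. miR-148a-3p and miR-152-3p stay above 1 in all settings shown, while miR-148b-3p lies between -1.01 and -0.04.

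Ratios of counts within a library carry no scaling between libraries. The ratio of miR-148a-3p to miR-148b-3p was 0.908, 0.869 and 0.939 in EV replicates and 0.122, 0.139 and 0.144 in Intracellular replicates. In the EV libraries these nearly identical miRNAs thus had almost equal read counts, while in the Intracellular libraries miR-148a-3p had the fewer reads. Since adapter ligation differs between sequences, this need not hold for numbers of molecules. On the log2 scale the ratio was -0.14 ± 0.06 in EV libraries and -2.89 ± 0.12 in the Intracellular group (SD, n = 3), a difference of 2.75 that ranged from 2.68 to 2.79 when any library was left out.

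The ratio of miR-152-3p to miR-148b-3p was 22.7, 25.9 and 11.7 in EV libraries and 2.88, 4.83 and 5.50 in Intracellular replicates, without overlap. Its log2 values were 4.25 ± 0.62 and 2.09 ± 0.49 (SD, n = 3), a difference of 2.16. The ratio of miR-152-3p to miR-148a-3p did overlap, at 24.9, 29.8 and 12.4 in EV libraries and 23.6, 34.7 and 38.3 in Intracellular replicates. The difference in log2 was -0.59, against SDs of 0.67 and 0.37. It was -0.21 without EV replicate 3 and -0.84 without EV replicate 2.

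Because these reads differ by few bases, the level of miR-148a-3p was also set against that of its most abundant relative. It came to 4.01%, 3.36% and 8.04% of miR-152-3p in EV and 4.25%, 2.89% and 2.61% in Intracellular replicates. Whether reads of miR-152-3p were counted as miR-148a-3p was not tested.

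As a pool, the 3p arms with the shared seed took 3.93%, 4.63% and 2.40% of EV counts and 0.737%, 1.01% and 1.10% of Intracellular counts. The means were 3.65% ± 1.14 and 0.950% ± 0.190 (SD, n = 3). miR-152-3p made up 90.4% ± 4.07 of the pool in EV and 78.6% ± 5.79 in Intracellular libraries. miR-148b-3p made up 5.01% ± 2.04 and 18.9% ± 5.32, and miR-148a-3p 4.58% ± 2.03 and 2.52% ± 0.475. For each of the 3 shares the libraries of the groups did not overlap. The pool thus took more of the EV libraries, and miR-148b-3p took less of the pool there.

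**Figure D4:**
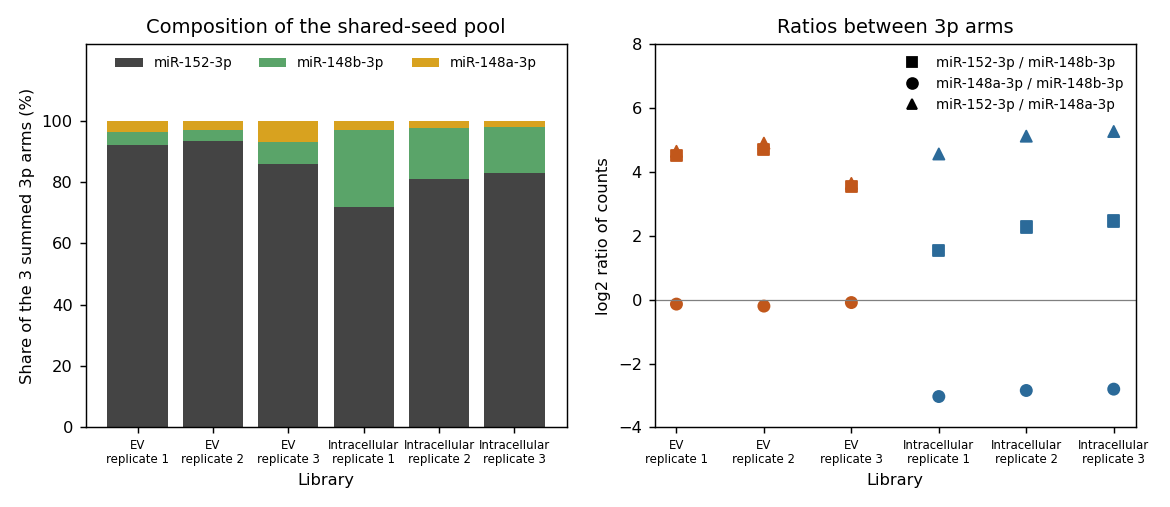
Left, share of each 3p arm in the summed counts of the 3 shared-seed arms per library (percent, stacked); right, log2 ratios of counts between pairs of these arms, EV in orange and Intracellular in blue. miR-148b-3p takes 3.60% to 7.35% of the pool in EV and 15.1% to 25.0% in Intracellular libraries, and both ratios to miR-148b-3p are higher in every EV library.

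The larger arm of miR-148a was not the same in cells and vesicles. In the cells the 5p arm was the more abundant, and the 3p arm held 26.0%, 15.5% and 17.0% of the counts of both arms in Intracellular replicates. In the vesicles the 3p arm held 68.2%, 63.8% and 60.5% in EV replicates, with 95% Wilson intervals from 54.3% to 74.7%. The groups did not overlap, and the larger arm differed in every library. The log2 ratio of 5p to 3p, with a prior count of 1 on each arm, was -0.83 ± 0.24 in EV libraries and 2.08 ± 0.50 in the Intracellular group (SD, n = 3). The difference was -2.92, and -3.20 to -2.73 when any library was left out.

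For miR-152 the 3p arm was dominant in both groups, with 99.5% to 99.8% of both arms in EV and 97.8% to 98.3% in Intracellular libraries. Its log2 ratio of 5p to 3p was -8.09 ± 0.58 in EV libraries and -5.66 ± 0.22 in the Intracellular group (SD, n = 3), a difference of -2.43. For miR-148b the 3p arm held 98.5% to 99.4% in EV and 99.2% to 99.7% in Intracellular libraries. Its difference was 1.44 in the other direction, or 0.99 with a prior count of 0.25, and the 3p shares of the groups overlapped. This difference rests on 5 EV counts of the 5p arm.

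Over 73 known precursors with both arms tested, the median difference of this ratio was -0.28, and the range was -2.92 to 3.33. miR-148a had the lowest value of these and the 2nd largest in size, and miR-152 had the 4th lowest. The larger arm differed in every library between the groups for 3 of the 73 precursors, which were miR-148a, miR-140 and miR-193a. Of these, miR-193a rests on 9 EV counts for its rarer arm and miR-140 on 73, against 242 for miR-148a.

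**Figure D5:**
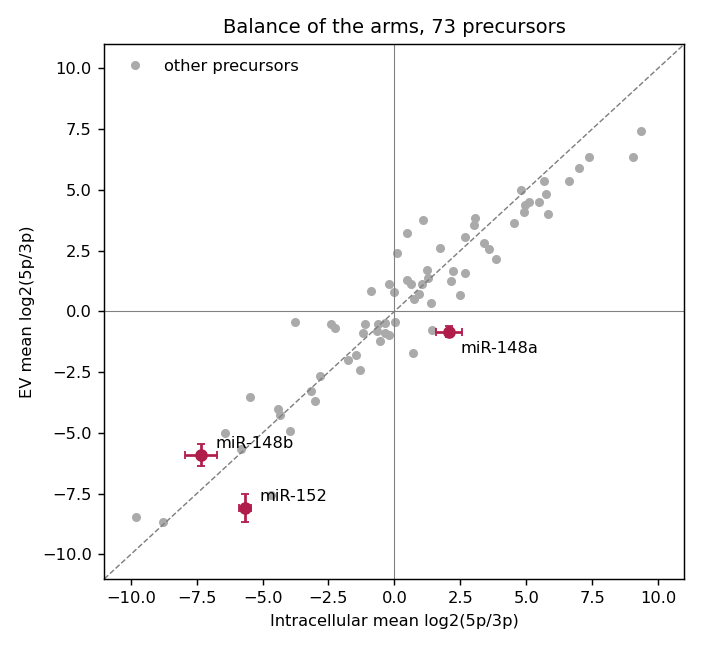
Mean log2 ratio of 5p to 3p counts in EV against that in Intracellular libraries for 73 known precursors; the dashed line marks equal ratios, and bars on the family's precursors are SD over 3 libraries. miR-148a lies in the lower right part, with 5p the larger arm in the cells (2.08) and 3p in the vesicles (-0.83), and miR-152 lies below the line.

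The miRNAs whose log2(CPM + 1) followed each 3p arm most closely over the 6 libraries were listed from 210 known miRNAs with a mean of at least 50 CPM in a group. Since the libraries form 2 groups, Pearson's r mainly reflects the step between them and is given as a description. Nearest to miR-148a-3p were miR-423-5p (r = 0.9996), miR-501-3p (0.9992) and miR-320-3p (0.9936), the last known for bypassing Drosha. All 3 were called higher in EV. miR-501-3p, at 132.2 CPM in EV and 19.6 CPM in the Intracellular group, reached 50 CPM in EV alone. Nearest to miR-152-3p were miR-503-5p (0.9929), miR-345-5p (0.9924) and miR-378a-3p (0.9902), also called higher, and like miR-152-3p they varied widely within EV. miR-378a-3p, for instance, stood at 3873 ± 1289 CPM in EV (SD, n = 3). miR-345-5p stood at only 71.1 ± 33.7 CPM in EV and 2.82 CPM in the Intracellular group. With 1 EV count worth 9.47 to 12.3 CPM, its spread cannot be told apart from counting error. Nearest to miR-148b-3p were let-7g-5p (0.9037), let-7d-5p (0.8706) and let-7i-5p (0.8227), which were called lower with TMM. With total counts let-7i-5p was still called lower (log2 fold change -0.36), while let-7g-5p, let-7d-5p and miR-148b-3p were not called. Between the 3p arms themselves r was 0.925 for miR-148a-3p and miR-152-3p, -0.327 for miR-148a-3p and miR-148b-3p, and -0.609 for miR-148b-3p and miR-152-3p.

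Known miRNAs next to the 3p arms in the order of mean CPM give a reference for their level. Among Intracellular libraries miR-152-3p ranked 18th, between miR-100-5p (9278 ± 1196 CPM) and let-7e-5p (7433 ± 745 CPM), which stood at 9764 ± 377 and 5331 ± 275 CPM in EV (SD, n = 3). Both were called lower with TMM and neither with total counts. miR-148a-3p ranked 114th there, beside miR-93-5p (235.8 ± 78.0 CPM) and miR-379-3p (231.3 ± 96.5 CPM), neither of which was called. miR-148b-3p ranked 36th, beside miR-30d-5p and miR-30a-5p, which had log2 fold changes of -0.66 and -0.52. In EV, miR-152-3p ranked 6th, between let-7f-5p (49709 ± 2924 CPM) and let-7c-5p (29896 ± 2226 CPM), miR-148b-3p 52nd, between miR-186-5p and miR-25-3p, and miR-148a-3p 57th, between miR-455-5p and miR-351-5p.

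Other miRNAs reported to repress DNA methyltransferases were taken as a list of 10, of which 9 were tested. Of these, miR-143-3p is also in the fibroblast list and miR-126a-3p in the endothelial one. In the list 3 were called higher in EV and 2 lower, with a median log2 fold change of -0.47, against 84 higher and 56 lower of 328 and a median of -0.06 over all tested miRNAs. With total counts 3 were higher and 0 lower, with 0 lower at an unadjusted p under 0.05 in edgeR, and the medians were 0.09 and 0.55. The 3 higher ones were miR-29a-3p (log2 fold change 1.70, SE 0.18) and miR-29b-3p (1.02, SE 0.39), known repressors of Dnmt3a and Dnmt3b, and miR-342-3p (2.12, SE 0.35), reported to target Dnmt1. The 2 lower ones were miR-101a-3p (-0.85) and miR-101b-3p (-0.69). miR-143-3p, the most abundant of the list, had a value of -0.88 (SE 0.36) and was not called. miR-29a-3p stood at 4930 ± 135 CPM in EV libraries and 996.1 ± 313.8 CPM in the Intracellular group (SD, n = 3), miR-185-5p at 507.3 ± 110.2 and 354.2 ± 123.4 CPM, and miR-29c-3p was not tested, with 8 EV counts.

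Some markers of other cell types were higher in EV along with miR-148a-3p and miR-152-3p, and their part in these results was not tested. Over all tested miRNAs, 25.6% were called higher and 17.1% lower with TMM. With total counts the shares were 32.6% and 0.915%. The liver and serum list (miR-122-5p, miR-192-5p, miR-194-5p) summed to 11612 to 14069 CPM in EV libraries and 397.1 to 476.3 CPM in Intracellular libraries, with 1 of 3 called higher, miR-122-5p. The erythroid list summed to 151.5 to 221.6 CPM in EV libraries and 2.26 to 5.98 CPM in Intracellular libraries. Both of the tested members, miR-451-5p and miR-486 (10 and 39 EV counts), were called higher, and miR-144-3p was at 0 in every EV library. The muscle list summed to 49.3 to 151.5 and 9.06 to 12.6 CPM, with its 1 tested member of 3, miR-206-3p (25 EV counts), called higher. The myelinating glia list summed to 21.7 to 85.2 and 8.70 to 22.2 CPM, with 1 of 2 tested members called higher (miR-138-5p, which had 7 EV counts) and miR-219a-5p at 0 in EV. miR-451-5p, miR-486, miR-206-3p and miR-138-5p had means of 1.5 to 2.76 CPM in the Intracellular group and passed the filter through their EV level alone. Their higher calls were thus largely set by the filter. Summed levels of the leukocyte list were 18.9 to 32.5 and 11.4 to 37.1 CPM, with miR-142-5p and miR-223-3p at 0 in EV. Those of the endothelial list were 259.9 to 435.7 and 141.4 to 390.3 CPM. Those of the neuronal list were 2160 to 2578 and 1580 to 3277 CPM, with 2 of 2 tested members called lower with TMM and 0 with total counts (edgeR, with 0 lower at an unadjusted p under 0.05). Both exceeded a mean of 1000 CPM, and of known miRNAs at that level 46.6% were called lower with TMM. Another listed member, miR-124-3p, had no row. Of the fibroblast list 1 of 6 was called higher and 4 lower with TMM, where 25.6% and 17.1% of all tested miRNAs were, and 1 higher and 0 lower with total counts, where 32.6% and 0.915% were. With total counts 2 of the 6 were lower at an unadjusted p under 0.05 in edgeR.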

How the data were processed

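Small RNA of 3 EV and 3 Intracellular samples was analysed. Per the submitters' processing notes, cutadapt and the build Rnor_6.0 were used. Which aligner, counter and miRNA annotation were used is not given in the sources at hand. The deposited counts are the authors' whole-number read counts, 1 row per mature miRNA. The TPM table of the authors equals these counts brought to a sum of 1000000 in each library, without a length term (largest difference 4.8e-05), so it was used only in alternatives. Table columns were assigned to samples from the group and replicate number they name.

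Counts were tested with edgeR 4.0.16 (R 4.3.3), using TMM, filterByExpr (minimum count 10, minimum total 15), robust quasi-likelihood fits, 2-sided tests and Benjamini-Hochberg adjustment over all tested miRNAs. Standard errors came from the F statistic. No pair of replicates agreed within sampling noise (chi-square over its degrees of freedom was at least 3.67). Alternatives used DESeq2 1.42.0, limma 3.58.1, other scalings and filters, a replicate block and each library left out. Leaving out libraries with the same miRNAs tested was added after the data were seen.

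The members, lists and tests were chosen with earlier results of these data known. Named miRNAs were all arms of the family, the 3 known miRNAs nearest each 3p arm by r, neighbours in rank, and up to 4 members of each list; others named were chosen after their values were seen.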

Additional observations from a re-analysis of the deposited data

How the results depend on the processing

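miR-148a-3p kept its direction and its call in 25 of 25 alternatives (log2 fold change 1.78 to 2.71), and miR-152-3p kept its direction in 25 and its call in 24 (1.22 to 2.15; leaving out 1 library gave 1.22 to 1.73). miR-148b-3p kept its sign in 25 but its call in 16. It was at -0.042 with total counts and at -0.045 and -0.045 with limma on log2(TPM + 1) and on log2(TPM + 0.1), which carry total-count scaling, and leaving out 1 library gave -0.92 to -0.32. miR-148b-5p turned its sign with upper-quartile scaling (-0.17) and without a filter (-0.048), and leaving out 1 library gave -0.16 to 0.30; the cause was not tested. It was not tested without any 1 Intracellular library when the filter was applied again.

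Over all miRNAs, lower calls numbered 3 with total counts, 92 with the upper quartile, 36 with at least 10 counts in 3 libraries, 37 with known miRNAs alone, and 2 and 3 with limma on log2(TPM + 1) and log2(TPM + 0.1), against 56. Without a filter 197 were higher, where 1071 miRNAs were tested, against 84. Leaving out 1 library gave 50 to 91 higher and 18 to 58 lower calls. In the list of DNA methyltransferase repressors the lower calls numbered 0 with total counts, 5 with the upper quartile, 4 without a filter, 1 with at least 10 counts, 1 with known miRNAs alone, and 0 with limma on either TPM scale, against 2, and 0 to 4 when 1 library was left out. Their cause was not tested.

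Deviations from the group means were nearly uncorrelated between same-numbered EV and Intracellular libraries (r = 0.0243, 0.0208 and 0.016 for numbers 1, 2 and 3). At the low EV counts of many miRNAs, this cannot tell whether the numbers pair the samples. With a replicate block the log2 fold changes were 2.05 for miR-148a-3p, 1.46 for miR-152-3p and -0.70 for miR-148b-3p, each still called, with 87 higher and 46 lower calls in all. By Spearman's rho in place of Pearson's r, 0 of the 3 nearest miRNAs were shared for miR-148a-3p and 0 of 3 for miR-152-3p, so these lists depend on the measure. EV depth limits miR-148b-5p and miR-152-5p, with 5 and 32 EV counts.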

Other observations

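Within the EV group, replicate 3 had the lowest level of miR-152-3p (20600 CPM) and the highest of miR-148a-3p (1657 CPM), miR-148b-3p (1765 CPM) and miR-148a-5p (1083 CPM). The miR-152-3p level in EV replicate 2 was the highest of all libraries (43143 CPM).

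The GC content of the 3p arms was 42.9% for miR-148a-3p, 40.9% for miR-148b-3p and 47.6% for miR-152-3p, around the median of 45.8% over 290 known tested miRNAs. The letters GGAG, a motif described for miRNAs of vesicles, were searched on the strand of the mature miRNA. They were in 0 of the 6 arms and in 8.62% of the 290 known tested miRNAs, and a match or its absence is a description of these letters alone.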
